A study of Mus musculus with 4 samples.

Results

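The 8 genes described here make up the urea cycle and its entry steps: Cps1, Otc, Ass1, Asl, Arg1, Nags, Slc25a15 and Glud1. They were chosen by symbol, each matched 1 row, and they are 8 of the 31053 genes of the deposited matrix. The samples were single-cell suspensions of mouse liver in a gene-induced model of hepatocellular carcinoma (HCC): HCC-ES, tumor at week 4, HCC-MS, tumor at week 8, HCC-LS, tumor at week 10 in its own label and at week 12 in the series text, and HCC-NL, normal liver at week 0, with 1 sample each. The labels give no strain, age or inducing gene. The matrix joins 4 sets of barcodes, told apart by a suffix from 1 to 4 and called libraries here, and no source used here pairs a suffix with a sample. The pool was therefore taken as 1 sample, no library was given a week, no test was made between libraries, and the intervals, at the 95% level, hold counting error alone.

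The urea cycle turns the ammonia released by amino acid breakdown into urea, and in mammals the complete cycle runs in hepatocytes. Glud1 (glutamate dehydrogenase) frees ammonia from glutamate, Nags (N-acetylglutamate synthase) makes the cofactor without which Cps1 (carbamoyl phosphate synthetase) is inactive, and Otc (ornithine transcarbamylase) joins the carbamoyl phosphate of Cps1 to ornithine inside mitochondria. Ass1 and Asl (argininosuccinate synthase and lyase) then make arginine in the cytosol, Arg1 (arginase) splits it into urea and ornithine, and Slc25a15 carries ornithine back into the mitochondrion. Across the liver lobule the cycle is known to lie towards the portal vein, while Glul (glutamine synthetase), which traps the ammonia that remains, marks the hepatocytes around the central vein and is a target of Wnt signalling.

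Promoter sequences, 250 bases before to 50 bases after the start, were found for 5 of the 8 genes in a RefSeq table (build GRCm38.p6) of 32851 promoters. Those of Otc, Ass1 and Nags are printed 5′ to 3′ in the direction of the gene, because these genes followed different patterns over the hepatocytes below and their promoters differ in composition. Capitals mark GGGCGG (the GC box) and CTTTGAT (the core bound by the TCF and LEF factors of Wnt signalling), each on either strand, with no overlap between them.
Otc, chrX:10252055-10252354, + strand: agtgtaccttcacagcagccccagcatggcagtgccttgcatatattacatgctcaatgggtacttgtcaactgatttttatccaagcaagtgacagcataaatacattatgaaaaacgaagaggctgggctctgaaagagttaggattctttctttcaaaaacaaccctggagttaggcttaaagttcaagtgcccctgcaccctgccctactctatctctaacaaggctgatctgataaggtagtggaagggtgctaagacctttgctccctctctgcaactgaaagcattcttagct
Ass1, chr2:31470020-31470319, + strand: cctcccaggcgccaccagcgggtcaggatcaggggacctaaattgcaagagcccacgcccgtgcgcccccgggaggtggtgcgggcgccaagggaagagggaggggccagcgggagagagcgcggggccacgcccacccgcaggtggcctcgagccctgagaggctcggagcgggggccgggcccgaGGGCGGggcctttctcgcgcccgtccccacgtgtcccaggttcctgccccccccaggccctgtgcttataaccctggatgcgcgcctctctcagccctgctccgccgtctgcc
Nags, chr11:102145263-102145562, + strand: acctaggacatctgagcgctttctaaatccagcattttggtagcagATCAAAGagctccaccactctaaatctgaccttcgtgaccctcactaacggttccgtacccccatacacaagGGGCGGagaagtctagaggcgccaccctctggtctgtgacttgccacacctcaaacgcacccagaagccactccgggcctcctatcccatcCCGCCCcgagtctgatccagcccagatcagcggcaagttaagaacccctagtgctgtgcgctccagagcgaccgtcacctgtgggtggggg
The Otc promoter held 1 CG pair, as few as 14.1% of the promoters in the table, and neither motif. The Ass1 promoter held 27 CG pairs and 1 GGGCGG, and the Nags promoter held 14 CG pairs, 2 GGGCGG and 1 CTTTGAT, against a median of 7 CG pairs per promoter. GGGCGG was present in 35.7% of all promoters in the table and CTTTGAT in 3.73%. A match is a description of these letters only.

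The 4 libraries summed to 15593960, 49975828, 24012736 and 40617071 UMIs, each UMI being a counted RNA molecule, and their medians were 1304, 3131, 1318 and 2484 per barcode. In all, 710 of 37357 barcode sequences (1.90%) occurred in more than 1 library. After filtering, 34783 cells were analysed, of which 20303 (58.4%) were hepatocyte-like: 3684, 4416, 6458 and 5745 in libraries 1 to 4. The 9 clusters given that name each detected 13 to 15 of the 15 hepatocyte markers, which include Alb and Apoa1. The libraries stood apart in their hepatocyte-like cells: the median depth was 1498, 4933, 1343 and 3443 UMIs, the median mitochondrial share was 0, 1.01%, 2.55% and 0.714%, and most hepatocyte states described below lay in 1 library or in libraries 2 and 4. One cluster of 70 cells, cluster 21, led with interferon-induced genes, carried all 15 hepatocyte markers and stayed unnamed. A larger one, cluster 0 with 2392 cells (6.88%), scored highest for B cell markers and stayed unnamed too. Neither cluster is in the values for named classes below, which hold no B cell-like class.

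All 8 genes were higher in hepatocyte-like cells than in the other 13 named cell classes pooled over libraries, and in 4 of 4 libraries higher than in the classes with at least 20 cells there, which left out erythroid-like cells in libraries 1 and 3 and cholangiocyte-like cells in libraries 2 and 4. Levels are given as CPM, the UMIs of a gene per 1000000 UMIs of the group. Otc stood at 329 CPM (325 to 332) in hepatocyte-like cells and 46.0 CPM in the other named classes together, a 7.14-fold difference (6.77 to 7.54). Ass1, 3842 against 572 CPM, was 6.72-fold higher. The next genes, Arg1 and Nags, were 5.88-fold and 5.84-fold higher. The log2 ratio of Arg1, 2.56, was 1.76 without library 3 and 1.96 with doublets kept, and 3.16 with thinned cells or with the libraries at equal weight. Smaller ratios were those of Asl (4.87-fold), Slc25a15 (4.10-fold), Glud1 (3.25-fold) and Cps1 (2.91-fold, 2.81 to 3.02). This order was not kept in each library: the ratio of Cps1 was 14.3, 2.47, 5.88 and 2.31 in libraries 1 to 4, and that of Arg1 10.9, 2.27, 11.5 and 4.83. Over the 8 genes the ratios ran between 6.31 and 18.6 in library 1 and between 2.27 and 4.56 in library 2. So 8 of 8 were at least 2-fold higher with an interval above 1, a call made for 15.5% of the 13301 genes with at least 100 UMIs over both sides. The median log2 ratio was 2.41 over the 8 genes and -0.51 over all genes tested. For 16.7% of the 9811 genes that could be ordered, the highest class was hepatocyte-like.

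The distance to the second class varied. Cps1 stood at 345 CPM in hepatocyte-like cells and 242 CPM in natural killer (NK) cell-like cells, a 1.42-fold difference (1.27 to 1.60). The NK value rests on library 2, which gave 273 of the 301 UMIs: without that library Cps1 stood at 248 CPM in hepatocyte-like cells and 48.8 CPM in NK cell-like cells, and the second class was vascular endothelial cell-like, at 114 CPM. Glud1 stood at 1277 CPM in hepatocyte-like cells and 571 CPM in vascular endothelial cell-like cells, a 2.24-fold difference. Otc and Ass1 were 4.96-fold and 4.84-fold above vascular endothelial cell-like cells, and Asl was 3.80-fold above macrophage-like cells. Of the 2113 vascular endothelial cell-like cells, 1939 came from a cluster whose markers scored highest for sinusoidal endothelial cells. At a lower clustering resolution no cluster was named vascular endothelial cell-like, and a cluster of 4393 cells was named sinusoidal endothelial cell-like. At a resolution of 2 both names were given. The border between the endothelial classes was thus not settled, and the naming of the second class depends on it. Arg1 was 3.34-fold above sinusoidal endothelial cell-like cells, at 213 against 63.8 CPM, and 1.77-fold above them without library 3. The 2 classes mix the libraries differently: 1856 of the 2306 sinusoidal endothelial cell-like cells came from library 1. Hepatocyte-like cells of library 1 had Arg1 at 596 CPM, 10.9-fold above the other named classes there. Below the first place the order was loose: of 13 pairs of neighbours in the order of classes, the intervals of 8 (Ass1) to 12 (Otc, Asl, Arg1, Nags and Slc25a15) overlapped. In the unnamed cluster 21, which is in none of these comparisons, Cps1 stood at 555 CPM (478 to 641), above the hepatocyte-like level, and Glud1 at 967 CPM (865 to 1079), below it. The other 6 genes had Ass1 at 4057 CPM, Otc at 284 CPM, Arg1 at 239 CPM, Asl at 194 CPM, Slc25a15 at 86.6 CPM and Nags at 62.7 CPM. In library 2 alone the 33 cells of the cluster had Arg1 at 311% of the hepatocyte-like level, from 44 UMIs.

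**Figure D1:**
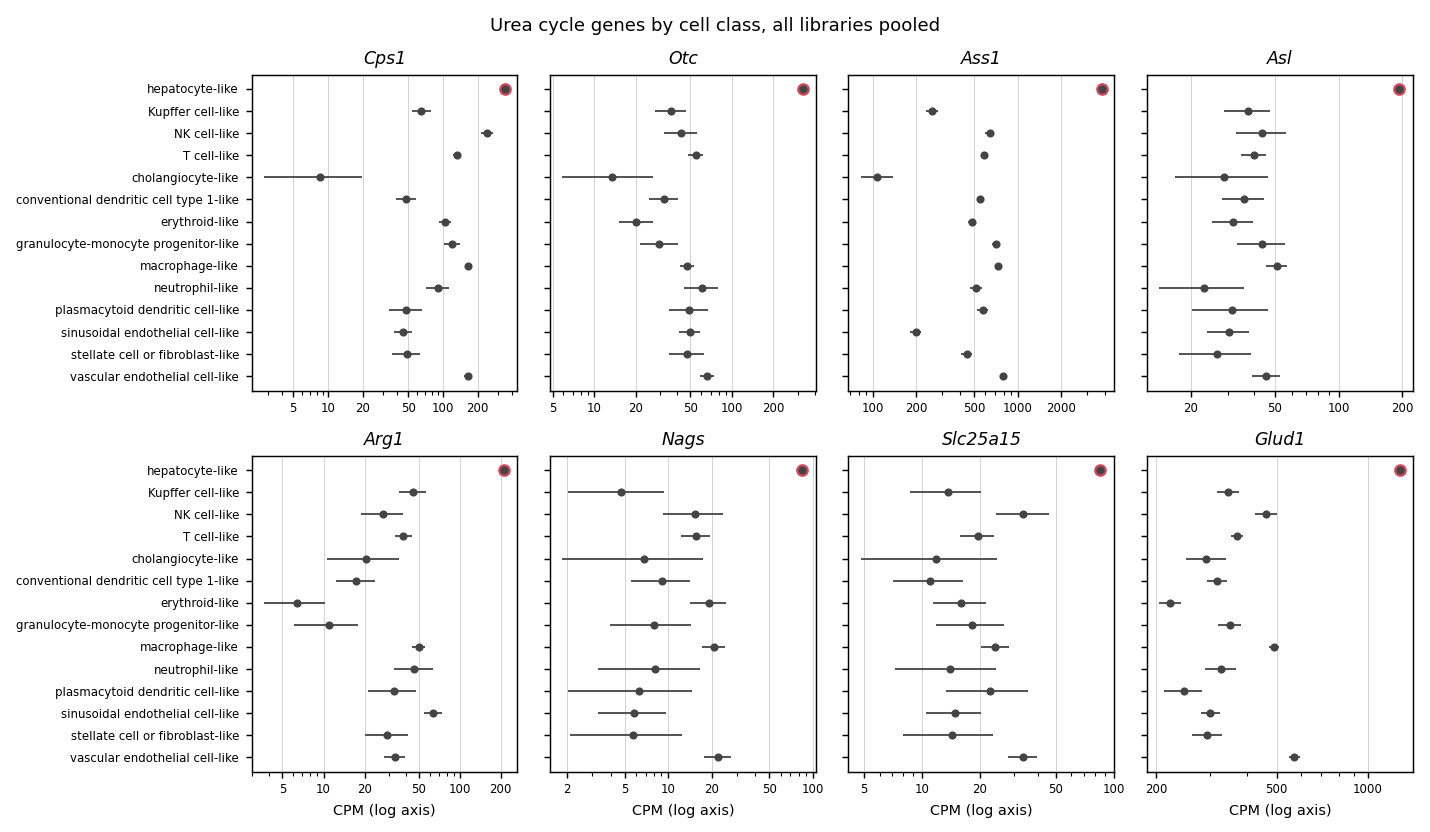
CPM of each urea cycle gene (log axes) in the 14 named cell classes, all libraries pooled, with 95% Poisson intervals; the point ringed in red is the hepatocyte-like class. The hepatocyte-like point lies to the right of all others in all 8 panels, closest to the next class for Cps1 (345 CPM against 242 CPM in NK cell-like cells, a value that rests on library 2).

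Among 61 other genes of nitrogen metabolism, grouped in 7 lists, those that feed the cycle were also higher in hepatocyte-like cells. Over all genes tested, 37.1% were at least 2-fold lower, beside the 15.5% higher. Of 12 genes of substrate supply, 10 were at least 2-fold higher and 1 was lower, with Car5a (mitochondrial carbonic anhydrase, 62.4 against 8.87 CPM), Hal (histidine ammonia lyase, 46.7 against 6.78 CPM), Prodh (proline dehydrogenase, 5.09-fold), Aldh4a1 (4.78-fold) and Slc25a13 (the aspartate carrier citrin, 4.75-fold) showing the largest ratios. Of 10 regulators, 8 were higher and 1 was lower: the glucagon receptor Gcgr was 5.41-fold higher, Creb3l3 4.25-fold, Hnf4a 4.15-fold and the mitochondrial deacetylase Sirt3 3.26-fold. Of 9 genes of ammonia and glutamine handling, 5 were higher and 2 lower. There the liver glutaminase Gls2 stood at 48.1 against 6.55 CPM, Glul at 6002 against 1053 CPM and the ammonium transporter Rhbg at 19.8 against 3.96 CPM, while the amino acid transporter Slc38a2 stood at 24.8 against 118 CPM. The glutamine transporter Slc38a3 was 3.63-fold higher.

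Genes that use arginine and ornithine in other ways split. Of 9 tested of 11, 4 were higher and 4 lower. Oat (ornithine aminotransferase) stood at 4958 CPM in hepatocyte-like cells against 671 CPM in the other named classes, and Agmat (agmatinase) at 181 against 25.8 CPM. Arg2, the mitochondrial arginase, stood at 0.216 against 9.90 CPM, the creatine synthesis gene Gatm at 2.22 against 109 CPM, and Ddah2 at 0.843 against 39.2 CPM. Polyamine and proline metabolism had 2 of 9 higher (Pycr1, 3.53-fold, and the spermidine synthase Srm, 2.01-fold). It had 3 lower, among them Sat1 with a ratio of 0.200 and Sms with 0.335. Of 5 pyrimidine synthesis genes, 0 passed 2-fold, and their log2 ratios ran between 0.09 and 0.93. Among the channels the urea transporter Slc14a1 stood at 0.0683 against 12.2 CPM, Aqp8 at 8.54 against 0.931 CPM and Aqp9 at 53.0 against 18.5 CPM.

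Within hepatocyte-like cells the 8 genes did not share 1 pattern over the libraries, and Arg1 differed most. Arg1 stood at 596, 74.7, 650 and 38.0 CPM in libraries 1 to 4. Libraries 1 and 3 were high and libraries 2 and 4 low, and the highest was 17.1-fold (16.1 to 18.2) above the lowest. A range at least that wide was found for 8.08% of the 10290 genes tested. The share of hepatocyte-like cells with an Arg1 UMI was 54.2%, 26.3%, 53.9% and 9.73%. After each cell was thinned to 1000 UMIs, with 718, 335, 2399 and 686 shallower cells of libraries 1 to 4 left out, it was 41.7%, 7.06%, 44.9% and 3.36%, against 3.55%, 2.49%, 4.10% and 0.556% in T cell-like cells, whose median depths were 1471, 2814, 1799 and 2274 UMIs.

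Otc was, like Arg1, higher in libraries 1 and 3, at 634, 217, 506 and 285 CPM in libraries 1 to 4, a 2.93-fold range. Cps1 was ordered otherwise, at 330, 502, 198 and 256 CPM, highest in library 2 and lowest in library 3 (2.54-fold). Ass1 stood at 4669, 3122, 2428 and 5217 CPM, highest in library 4, where Arg1 was lowest. Asl followed with 324, 161, 180 and 209 CPM, and a 2.01-fold range. Nags, the cofactor enzyme, ran opposite to Arg1, at 55.8, 88.2, 47.3 and 108 CPM, with libraries 2 and 4 above libraries 1 and 3. Slc25a15 (90.6, 65.2, 78.0 and 110 CPM) and Glud1 (1480, 1315, 955 and 1366 CPM) varied least, by 1.68-fold and 1.55-fold. So 6 of 8 had a range of at least 2-fold, near the 61.6% of all genes tested for which that held, and their median range was 2.22-fold against 2.40-fold over all genes. On the log2 scale the ratio of Asl in library 1 over library 2 was 0.93 under another scaling and 0.99 under a stricter cell filter. That of Cps1 in library 2 over library 3 was 0.99 under the stricter filter. All were just short of 2-fold.

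The UMIs of 1 step per UMI of another differed between libraries, and ratios to Arg1 restate its wide range. For each UMI of Arg1, hepatocyte-like cells held 7.83, 41.8, 3.73 and 137 UMIs of Ass1 in libraries 1 to 4. These are counts of 2 genes, compared here between libraries and not as levels of 1 gene against another. The intervals, 129.6 to 146 in library 4 and 3.66 to 3.81 in library 3, do not come near each other. The UMIs of Otc per UMI of Arg1 were 1.06, 2.90, 0.778 and 7.51. Between Ass1 and Nags the ratio moved less, between 35.4 in library 2 and 83.7 in library 1. The UMIs of Cps1 per UMI of Otc, a ratio without Arg1, were 0.521, 2.32, 0.391 and 0.899 in libraries 1 to 4. Those of Ass1 per UMI of Cps1 were 14.1, 6.22, 12.3 and 20.3.

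Genes of ammonia handling had wide ranges over the same libraries, with all 9 at least 2-fold and a median of 23.4-fold. Glul stood at 748, 5439, 1388 and 10327 CPM in hepatocyte-like cells of libraries 1 to 4, high where Arg1 was low. Oat, which shares the central position of Glul in normal liver, stood at 765, 3689, 392 and 9789 CPM. The glutaminase Gls2 was high in the other pair, at 140, 23.8 and 136 CPM in libraries 1, 2 and 3 and between 5.17 and 6.94 CPM in library 4, and so was Hal, with 163, 9.91, 153 and 2.55 CPM. The 5 pyrimidine synthesis genes were all highest in library 2, as were 64.2% of all genes tested, and their median range was 10.8-fold.

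**Figure D2:**
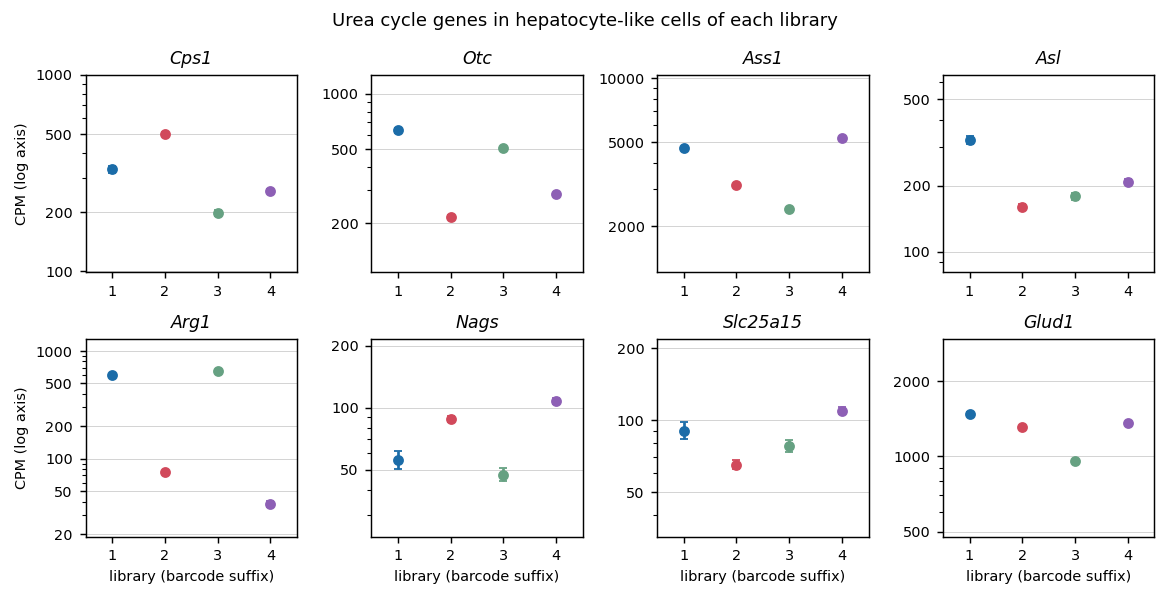
CPM of each urea cycle gene (log axes) in the hepatocyte-like cells of libraries 1 to 4, with 95% Poisson intervals. Arg1 runs between 38.0 and 650 CPM, with libraries 1 and 3 high, while Slc25a15 and Glud1 stay within 1.68-fold and 1.55-fold.

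Other genes known to differ along the lobule were used to rank the cells. The hepatocyte-like cells of each library were ranked by the difference between periportal markers (such as Cyp2f2 and Sds) and pericentral markers (such as Cyp2e1 and Axin2), with none of the 8 genes and no gene of the nitrogen lists among them, and split into 3 equal ranges. The portal end, which is the end of higher score within a library, held 6767 cells and the central end 6768. Median scores were 0.60, -0.35, 0.53 and -0.51 at the portal end of libraries 1 to 4, against -0.43, -1.02, -0.60 and -1.17 at the central end. The portal ends of libraries 2 and 4 thus had scores on the pericentral side of 0, in library 4 below the central end of library 1, so the ends are comparable only within a library. They are ranges of a score and not cell types: 3714 cells (18.3%) lay within 0.05 of a border. The median depth was 2694 UMIs in the portal end and 1826 in the central end, the median mitochondrial share 0.694% and 1.33%, and markers of other cell classes took a median of 0.311% and 0.501% of a cell's UMIs. The part of these differences in the results was not tested.

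Arg1, Ass1, Otc and Asl were higher in the portal end, pooled and in 4 of 4 libraries. Arg1 stood at 805, 108, 921 and 73.7 CPM in the portal end of libraries 1 to 4, against 335, 34.6, 214 and 9.11 CPM in the central end. Each portal value was above the central value of its library, and the pooled ratio was 3.58 (3.42 to 3.75), with 8.09 in library 4. On the log2 scale it was 1.84. Over 12 alternatives it ran between 1.30 and 2.59, the highest being that between the ends of 5 ranges in place of 3. Ass1 stood at 6049, 3425, 3602 and 6881 CPM in the portal end, against 3016, 2685, 817 and 3139 CPM in the central end, a pooled ratio of 1.92. The ratio of Ass1 was smallest in library 2, at 1.28, and largest in library 3, at 4.41. Otc stood at 758, 227, 700.1 and 364 CPM in the portal end, against 501, 191, 210 and 181 CPM in the central end (pooled ratio 1.88), and the pooled ratio of Asl was 1.58 (1.52 to 1.65). Without library 3 the log2 ratio of Asl was 0.52, short of 1.5-fold. Both had their smallest ratio in library 2, 1.19 for Otc and 1.23 for Asl.

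So 4 of 8 were at least 1.5-fold higher, against 7.11% of the 10648 genes tested, and 4 of 8 were so with the same direction in all libraries, against 1.46%. Of the 8, 0 were 1.5-fold lower, against 14.8% of all genes. The median log2 ratio was 0.50 over the 8 genes and 0.00 over all genes. The direction of Cps1 differed between libraries: portal over central, its ratio was 2.06 in library 1 and 2.78 in library 3, but 0.874 in library 2 and 0.994 (0.943 to 1.05) in library 4. Glud1 was lower in the portal end of libraries 1 to 3 (0.696, 0.834 and 0.805) and higher in library 4 (1.19). For Nags the ratios were 0.883 and 0.866 in libraries 1 and 3, whose intervals hold 1, and above 1 in libraries 2 (1.12 to 1.35) and 4 (1.37 to 1.64). Slc25a15 had ratios of 1.09, 0.872, 1.43 and 1.12 in libraries 1 to 4, above 1 by its interval in libraries 3 and 4 and below 1 in library 2.

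Genes around the cycle differed between the ends in both directions. Gls2 stood at 89.1 CPM in the portal end against 8.17 CPM in the central end, and Hal at 86.8 against 8.41 CPM, both higher in 4 of 4 libraries, as was the cytosolic aspartate aminotransferase Got1 (2.08-fold). The ornithine decarboxylase Odc1 was 1.54-fold higher when pooled, but its intervals held 1 in libraries 1 and 3. Rhbg (6.61 against 47.2 CPM), Aqp9 (29.9 against 96.7 CPM) and Aldh4a1 (77.2 against 125 CPM) were lower in 4 of 4 libraries. Slc1a4 (5.31 against 15.4 CPM) and Gcgr (45.0 against 84.0 CPM) were lower in libraries 2, 3 and 4; in library 1 the interval of Gcgr held 1 and Slc1a4 had too few UMIs to compare. Glul, which was no part of the score, stood at 33.1, 3221, 159 and 9866 CPM in the portal end of libraries 1 to 4, against 2037, 8405, 3731 and 9423 CPM in the central end. The middle range had 327, 5799, 602 and 11678 CPM. In libraries 1, 2 and 3 Glul was thus highest at the central end, while in library 4 its ratio was 1.05 (1.04 to 1.06), so that Glul did not separate the ends there although Arg1 and Otc did.

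**Figure D3:**
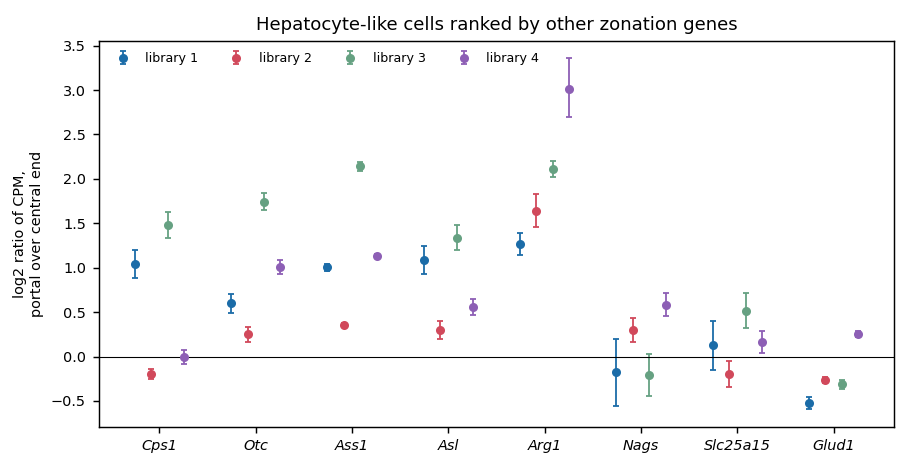
Log2 ratio of CPM, portal over central end of hepatocyte-like cells, for each urea cycle gene in libraries 1 to 4, with 95% intervals; the line at 0 marks equal levels. All 4 points of Otc, Ass1, Asl and Arg1 lie above 0, and those of Cps1, Nags, Slc25a15 and Glud1 lie on both sides.

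Sub-clustering of the hepatocyte-like cells, again without the 8 genes or the nitrogen lists among the clustering genes, gave 9 states of at least 100 cells. State 0, led by Serpina1e and Elovl3 (3676 cells), came nearly all from library 1. States 1 (Sds and Wfdc21, 3669 cells), 2 (Saa1 and Saa2, 1634 cells) and 3 (Cdkn1a and Acot1, 895 cells) came nearly all from library 3. Gm42418, Lars2 and Rps29 were also among the leading genes of state 3, whose cells had a median of 1079 UMIs and a median mitochondrial share of 2.56%, and the part of these in its levels was not tested. States 5 (Malat1 and Gm26917, 2045 cells), 7 (Hsd17b6 and Igfbp2, 2460 cells) and 8 (Lhpp and Aldh2, 5129 cells) came from libraries 2 and 4, and state 4, led by the cell cycle genes Ube2c and Birc5 (608 cells), from libraries 2, 3 and 4. State 9 held 125 cells of library 2 and led with Afp and Dlk1, which are known as genes of fetal liver and of HCC. A state held by 1 library cannot be told apart from that library.

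Each gene had its own order over the states. Arg1 was highest in state 1 (939 CPM), followed by states 2 (683 CPM) and 0 (591 CPM), and stood at 47.7 to 85.8 CPM in the other 6 states, lowest in state 8. The highest was 19.7-fold (18.6 to 20.9) above the lowest. Otc shared the upper 3 states, with 701 CPM in state 1, and was lowest in state 9 (58.1 CPM), a 12.1-fold range. Ass1 was highest in state 8 (6160 CPM), which had the lowest Arg1 when pooled, and lowest in state 3 (395 CPM), a 15.6-fold range. State 8 was not lowest for Arg1 within a library. Within library 2 that was state 9, at 49.7 CPM against 63.8 CPM in state 8. Within library 4 it was state 5, at 25.9 CPM against 40.0 CPM in state 8. In state 8, Glul stood at 12918 CPM and Oat at 11756 CPM.

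Cps1 was highest in state 5 (747 CPM) and lowest in state 3 (41.0 CPM), an 18.2-fold range (14.5 to 23.1). State 5 had a median mitochondrial share of 5.08%, the highest of the 9 states, and led with Malat1, a nuclear RNA; the part of this in the level of Cps1 was not tested. In libraries 2 and 4 Cps1 was highest in that state, with 908 and 587 CPM, but the 96 cells of the state in library 3 had 87.2 CPM. Nags was highest in the cycling state 4 (161 CPM) and lowest in state 2 (35.3 CPM), a 4.57-fold range. In both libraries 2 and 4 the cycling state had the highest Nags, at 170 and 171 CPM. The other ranges were 3.27-fold for Asl, 2.34-fold for Slc25a15 and 2.04-fold for Glud1.

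Over all states 8 of 8 had a range of at least 2-fold, which also held for 92.0% of genes, and the median range was 8.32-fold for the 8 genes and 4.34-fold for all genes. Under other settings, the pair of states that was highest and lowest with all libraries was compared again. On the log2 scale that ratio was 0.78 for Slc25a15 without library 4 and 0.96 for Glud1 without library 2, both short of 2-fold. Without library 3, the log2 ratios of the same pairs of states were 1.40 for Cps1, 2.99 for Otc and 2.67 for Ass1, against 4.19, 3.59 and 3.96 with all libraries; that of Asl, 1.71 with all libraries, was 2.71 without library 3 and -0.71 without library 1. Within 1 library the median ranges were 2.53-fold, 4.14-fold and 2.69-fold in libraries 2, 3 and 4. In library 2, 6 of 8 passed 2-fold (64.3% of genes), with Asl and Slc25a15 below it. In library 4, 5 of 8 passed (59.2% of genes). In library 3, where 3 states could be compared, 5 of 8 passed (31.6% of genes): Cps1, Otc, Ass1, Asl and Arg1, all 5 lowest in state 3. Arg1 stood there at 50.2 CPM in state 3 against 939 CPM in state 1, an 18.7-fold range that 0.882% of genes reached. Within library 2 the range of Arg1 was 2.06-fold, which 61.6% of genes reached, within library 4 it was 2.82-fold (33.7% of genes), and over all states 14.7% of genes reached its range. Ass1 stood at 383 CPM against 3343 CPM in the same pair, while Glud1 had its highest level in state 3, at 1287 CPM.

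The same state could also differ between libraries. In the cycling state 4, Ass1 stood at 429 CPM in library 3, against 4018 CPM in library 2 and 4232 CPM in library 4. Libraries 4 and 2 differed little there, with a ratio of 1.05 (1.02 to 1.09), while library 4 stood 9.86-fold (8.53 to 11.5) above library 3. Arg1 was low in this state in all 3 libraries, at 95.7, 67.8 and 72.9 CPM in libraries 2, 3 and 4. Library 3 thus held both the state with the highest Arg1 and states with low levels of most of the cycle. In states 5, 7 and 8 Arg1 was lower in library 4 than in library 2, with ratios of 0.376, 0.367 and 0.627, and Slc25a15 was higher, with ratios of 1.45, 1.63 and 1.53.

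**Figure D4:**
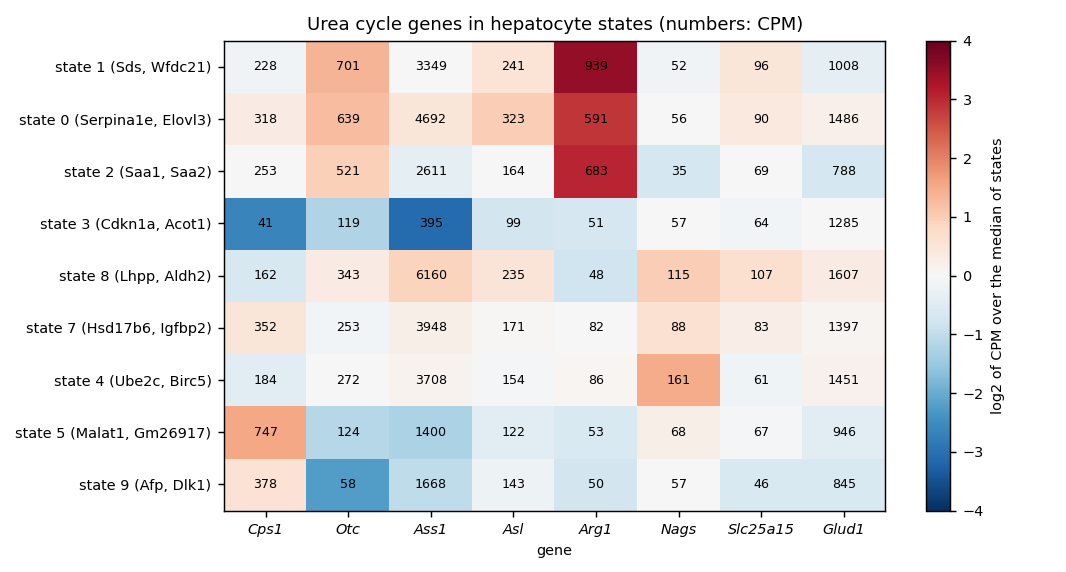
CPM of the urea cycle genes (numbers) in the 9 hepatocyte states, with colour for the log2 ratio to the gene's median over states. Arg1 and Otc are high in states 0, 1 and 2, Ass1 is highest in state 8, Cps1 in state 5 and Nags in state 4, and state 3 is low for Cps1, Ass1 and Asl.

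Over 15 groups of cells (a state in 1 library, at least 50 cells each), the pattern of each gene was set beside those of 6546 genes by Pearson's r of log2(CPM + 10). The groups share libraries, so these values are descriptions. Asl was close to Ass1 (r = 0.87) and to Otc (0.81), and Arg1 was close to Otc (0.74) and opposite to Glul (-0.85). The median r of Arg1 with all genes compared was -0.37. Within single libraries Arg1 and Glul were not opposite throughout: in library 2 both were lowest in state 9. In library 3, state 3 had the lowest Arg1 and the highest Glul, and in library 4, state 4 had the highest Arg1 and the lowest Glul. Cps1 was not close to Arg1 or Otc (0.10 with each). Among the most similar genes were Necab1 (0.97) and Tpmt for Otc, Bhmt2 (0.95), Ddc and Hoga1 for Ass1, and Got1 (0.94), Galt and Emc9 for Asl. For Arg1 they were Tstd1 (0.95), Fam47e and Enho, for Nags Tubb2a (0.95), Dlst and Crip2, and for Glud1 Eci1 (0.96), Acadl and Etfdh, which take part in the oxidation of fatty acids. Cps1 (Hgfac 0.88, Tor1aip2, Igfbp2) and Slc25a15 (Mat1a 0.89, Eif4ebp3, Ypel3) had lower values.

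UMIs of the 8 genes in other cell classes were set beside those of 20 secretory genes of hepatocytes, such as Alb and Apoa1, as a measure of hepatocyte RNA counted in other cells. The measure is rough, because the 8 genes stood in different ratios in different hepatocyte states: within library 2, Cps1 had 908 CPM in state 5 and 189 CPM in state 8, and Ass1 had 1416 and 4959 CPM. A level above the secretory genes therefore does not show RNA of another source. Each level is given as a percent of the level in hepatocyte-like cells of the same library. In pooled macrophage-like or neutrophil-like cells 0 of 8 genes lay above all 20 secretory genes, as 81.8% of all genes did, and 1 (Cps1) did without library 1. In macrophage-like cells of library 2, Arg1 alone of the 8 genes lay above all 20 secretory genes. Arg1 is also known as a gene of alternatively activated macrophages in mouse. It had 61.2 CPM there against 74.7 CPM in hepatocyte-like cells, which is 81.9% (71.8 to 93.2), while the secretory genes had a median of 30.1% and a maximum of 44.1% (Gc). Otc stood at 20.7% in the same cells. Counts were also made over 14 other classes of library 2, with 2 unnamed clusters among them. The gene most often above all secretory genes was Slc25a15, in 5 classes, followed by Cps1 in 3 and Arg1 and Glud1 in 2 each. Those of Slc25a15 rest on 7 to 65 UMIs. The share over all genes is not given for these single classes, so the counts are descriptions and no result about the 8 genes.

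The 258 UMIs of Arg1 in macrophage-like cells of library 2 lay in 100 of 1234 cells, and the 10 cells with most of them held 56.6%. The highest cell had 36. The 7 cells with at least 5 had a median of 3 Alb UMIs, and so had the other cells. This was looked at after the levels were seen. Elsewhere such cells were 1 or 2 per class and library and had more Alb than the rest. The medians were 62 against 0 UMIs in macrophage-like cells of library 1 and 14 against 1 in neutrophil-like cells of library 3. In T cell-like cells they were 34 against 0 in library 1 and 11 against 1 in library 3. In macrophage-like cells of libraries 1, 3 and 4, Arg1 stood at 6.99%, 8.46% and 24.7% of the hepatocyte level, inside the range of the secretory genes. Since hepatocyte Arg1 differed between these libraries, the levels themselves were 41.7, 61.2, 55.0 and 9.40 CPM in macrophage-like cells of libraries 1 to 4, from 10, 258, 29 and 11 UMIs. Levels in libraries 1, 2 and 3 overlapped within their counting error.

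NK cell-like cells of library 2 had Cps1 at 408 CPM against 502 CPM in hepatocyte-like cells, or 81.3%, above the secretory maximum of 57.6%. The share of all genes above that maximum in NK cell-like cells is not given. In pooled macrophage-like or neutrophil-like cells it was 81.8%. Cps1 was spread over 121 of 207 cells with at most 8 UMIs in a cell, and the 18 cells with at least 5 had a median of 7 Alb UMIs, against 3 in the other cells. At a clustering resolution of 2, an NK cell-like cluster of 194 cells, 162 of them from library 2, led with Peg10, Gzma and Afp, and its markers scored highest for hepatocytes. The part of hepatocyte RNA in these values was not tested. T cell-like cells of that library had 46.4%, against a secretory maximum of 40.8%. The libraries 1, 3 and 4 gave 6, 10 and 12 UMIs of Cps1 in NK cell-like cells. In conventional dendritic cell type 1-like cells, Glud1, an enzyme of many cell types, stood at 25.0% of the hepatocyte level (23.1 to 26.9), above the secretory maximum of 14.9%, and it was above that maximum in libraries 2, 3 and 4, in library 3 with an interval that reaches below it.

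**Figure D5:**
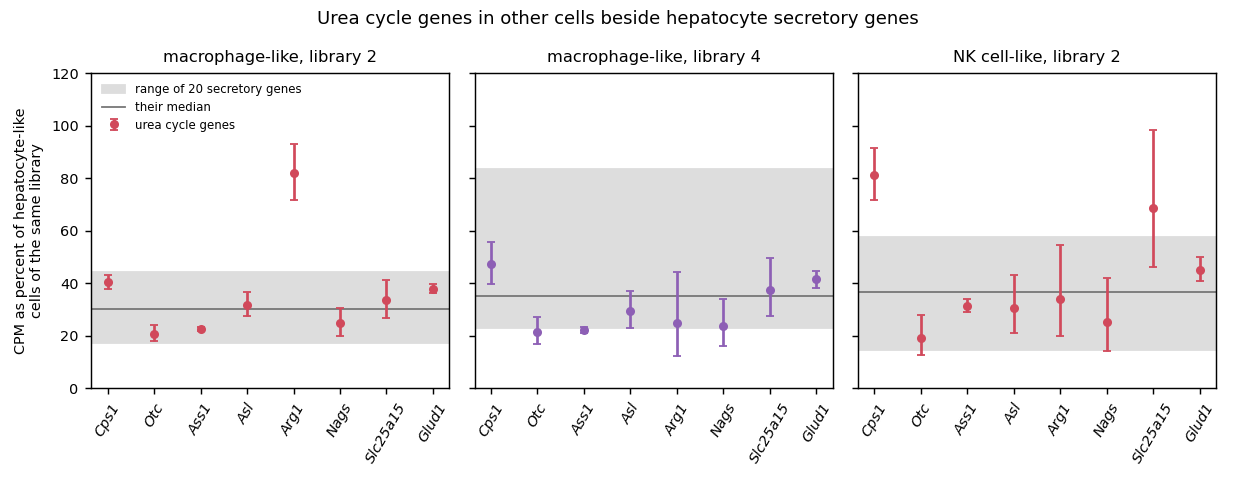
Level of each urea cycle gene as a percent of its CPM in hepatocyte-like cells of the same library, with 95% intervals, in macrophage-like cells of libraries 2 and 4 and NK cell-like cells of library 2; the grey band is the range of 20 hepatocyte secretory genes and the line their median. Arg1 in macrophage-like cells of library 2 (81.9%) and Cps1 in NK cell-like cells of library 2 (81.3%) lie above the band, and Slc25a15 in those NK cell-like cells lies above it with an interval that reaches into it.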

How the data were processed

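Livers were digested and meshed, red cells were lysed, and 10x Genomics 3′ libraries (version 3) were made, per the labels' protocols. The authors deposited raw UMI counts of all barcodes in 1 matrix. Per the file headers it came from Cell Ranger 6.0.1, and per the labels the build is mm9. Of 31053 identifiers, 30934 were in a table of gene names. All 61 genes of the nitrogen lists were present.

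Barcodes with at least 200 genes, 500 UMIs and under 20% mitochondrial UMIs were kept, which removed 30, 902, 107 and 799 barcodes of libraries 1 to 4 for mitochondrial UMIs. Scrublet (scanpy 1.11.5, score above 0.25) removed 1367 more. Cells were clustered (2000 variable genes, 30 components, 15 neighbours, Leiden resolution 1, and 0.5 for states) without batch correction, the 8 genes, the nitrogen lists, or mitochondrial, ribosomal and haemoglobin genes. Clusters were named X-like from marker lists.

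Counts were summed per group, with exact Poisson intervals for CPM and exact conditional binomial intervals for ratios (scipy 1.17.1). A call needs 2-fold (1.5-fold between the portal and central ends), an interval that excludes 1, and 100 UMIs. PCR and free RNA are outside these intervals. The ratio code was tested on simulated counts. Nitrogen genes are named where called with the same direction in every library, up to 5 per list; a few genes that meet the naming rules are not reported here. Members and lists were chosen with earlier results of these data known. Alternatives covered scaling, filters, doublets, depth, resolution and single libraries.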

Additional observations from a re-analysis of the deposited data

How the results depend on the processing

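With 1 pooled sample there is no replicate, and all intervals leave out biological spread. No paired analysis was possible because each stage has 1 sample and no replicate numbers. In the counts of genes, 69 of 74 alternatives stayed within 1.5 times. Of 293 alternative values of single genes, 284 kept direction and call. The exceptions in the counts were the states compared within library 3 (5) or library 4 (5) instead of 8, and the genes above every secretory gene in macrophage-like or neutrophil-like cells, which were 1 without library 1 (Cps1), 1 in library 2 alone (Arg1) and 1 in library 4 alone (Cps1) instead of 0. The log2 ratio of Asl between states 0 and 3 was -0.71 without library 1, since 38 cells of state 0 then remained. For libraries and states, the pair that was highest and lowest in the main setting was kept. At a clustering resolution of 2, clusters of 1196 and 2311 cells were not named hepatocyte-like. The first led with Serpina1e and came mostly from library 1, and the second led with Sds, with Arg1 among its leading genes, and came mostly from library 3. The hepatocyte-like class of that alternative thus lacks many cells with high Arg1. Values that fell below the fold were the library ratios of Asl (0.93 under the other scaling, 0.99 under the stricter filter) and Cps1 (0.99 under the stricter filter), the state ratios of Slc25a15 (0.96 thinned, 0.78 without library 4) and Glud1 (0.96 without library 2), and the portal ratio of Asl (0.52 without library 3, 0.49 with 2 ranges in place of 3). The single-library values, the within-library states and the other scaling for lobule ends, libraries and states were chosen after seeing the data.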
